A study of Mus musculus with 10 samples.

Results

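The comparison set hematopoietic progenitors (HP), the last of 5 stages of an in vitro differentiation of mouse embryonic stem (ES) cells into blood, against the undifferentiated ES cells at its start. It was chosen by the stage labels alone and took 4 of the 10 libraries of the series, 2 of HP and 2 of ES. Every library held nuclear RNA of the same HM-1 mouse ES cell line, depleted of ribosomal RNA and read by strand. The ES cells were kept undifferentiated on gelatine in serum with LIF, a cytokine that holds mouse ES cells in the pluripotent state, and were not sorted. The HP cells came from 3 days of embryoid bodies in serum with ascorbic acid and transferrin, sorting for FLK1, and 2.5 days of blast culture with VEGF, IL-6 and medium conditioned by D4T endothelial cells, and were then sorted as KIT+, TIE2- and CD41+. The stages between them, the FLK1+ hemangioblast (HB) and the first and second stages of the hemogenic endothelium (HE1 and HE2), entered the same fit, where they add to the estimate of the spread, and are otherwise used to follow the path of a gene between its end points. The study describes the libraries of a stage as independent biological replicates.

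Pluripotent mouse ES cells are held by a network of transcription factors around OCT4, NANOG and SOX2, divide with a short G1 phase and rely on rapid glycolysis and on threonine breakdown. Blood progenitors arise from a hemogenic endothelium under RUNX1, TAL1 and GATA factors, and the first of them form primitive erythroid, megakaryocyte and myeloid cells. Between these end points a cell trades its identity genes, and the net comparison also shows which genes of metabolism, division and chromatin stand where they started.

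The total counts were 58782055 and 36443697 in the ES libraries and 45097069 and 29592213 in the HP libraries, and 3 counts in a library, taken as the floor of detection, were worth 0.0532 to 0.0953 CPM (counts scaled to a common library size) in these 4. The ES libraries were much more alike than the HP libraries: the chi-square statistic of their counts was 2.99 per degree of freedom against 42.8 for HP, where sampling noise alone gives about 1. HP replicate 1 stood above HP replicate 2 in all 37 subunits of respiratory complex I and in all 41 tested genes of complexes III, IV and V, by a median of 0.56 and 0.57 on the log2 scale, against 0.03 over all genes. Calls on such genes are therefore given below with and without 1 HP library where that ended them. These are bulk libraries, so a lower level in fewer cells and a lower level per cell cannot be told apart.

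The labels were checked on anchor genes. *Pou5f1*, which encodes OCT4, read 549.0 and 519.8 CPM in the ES libraries and 3.31 and 0.413 CPM in HP. Its log2 fold change was -8.09 ± 1.05 (standard error, n = 2 libraries a stage, as for all fold changes here), with an adjusted p of 0.000111 in edgeR's quasi-likelihood test. *Runx1*, the regulator that opens the blood program, read 2.77 and 2.81 CPM in ES and 522.4 and 411.8 CPM in HP. It rose by 7.39 ± 0.32 (edgeR, adjusted p = 1.37e-07). *Itga2b*, which encodes the CD41 of the sort, read 2.91 and 2.49 CPM in ES and 400.2 and 366.5 CPM in HP. All 3 genes had HP libraries that did not overlap the ES libraries, as did 80.1% of all tested genes.

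The other sorting genes did not separate the end points in the same way. *Kit*, the stem cell factor receptor on which HP were selected, was already at 163.4 and 172.8 CPM in ES and read 363.1 and 250.9 CPM in HP. Its log2 fold change of 0.87 ± 0.33 stayed under the 2-fold threshold. *Tek*, which encodes TIE2, read 29.7 and 30.7 CPM in ES and 61.5 and 64.2 CPM in HP, although HP were sorted as TIE2-. The level in HP was thus above ES by 1.06 ± 0.31 (edgeR, adjusted p = 0.0143) while the HE1 mean stood at 429.0 CPM. The call on *Tek* was lost without either ES library or without HP replicate 2.

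A gene was called changed when its adjusted p was under 0.05 and its change at least 2-fold, and was placed at the ES level when the 95% interval of its log2 fold change lay within 2-fold of ES. Of 22596 genes tested, 3782 (16.7%) were higher in HP and 4958 (21.9%) were lower. Another 5841 (25.8%) ended at the ES level, and 8015 met none of these rules. The median log2 fold change over all genes was -0.01. Among the 10806 protein-coding genes with a mean of 9 CPM or more in ES or HP, 17.1% were higher, 17.2% lower and 47.2% at the ES level, that is, nearly equal numbers of these rose and fell. The HP and ES libraries did not overlap in 80.1% of all tested genes, so a lack of overlap by itself says little.

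**Figure D1:**
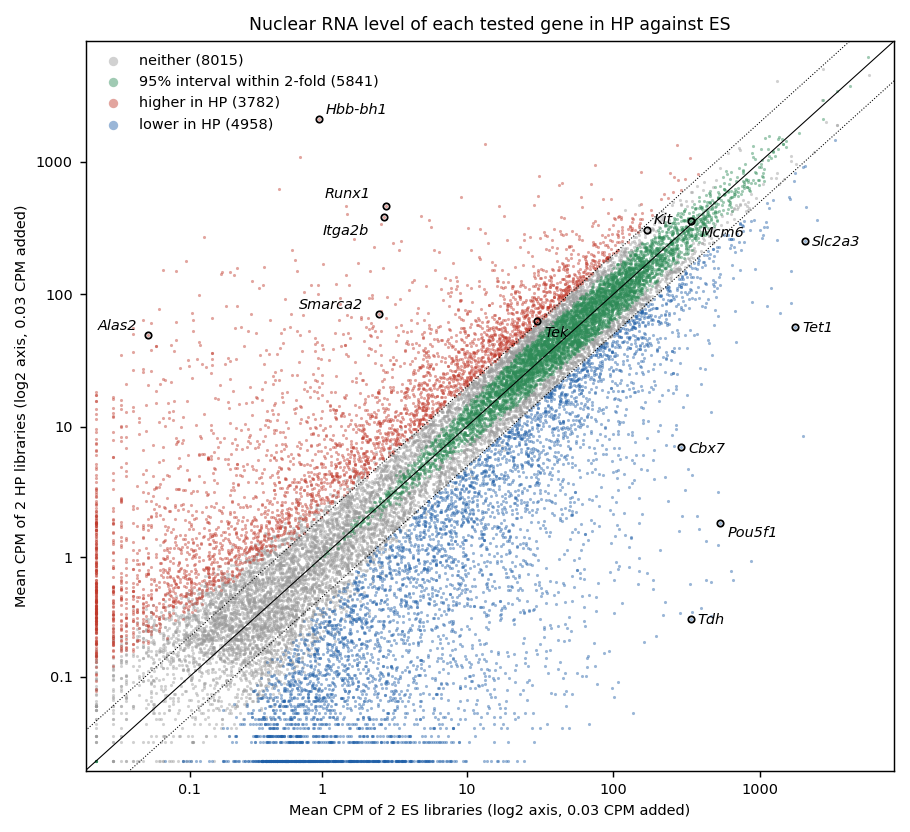
Mean CPM of the 2 HP libraries (vertical) against the mean of the 2 ES libraries (horizontal) for the 22596 tested genes, on log2 axes with 0.03 CPM added. Solid line, equal levels. Dotted lines, 2-fold. Red, the 3782 genes higher in HP. Blue, the 4958 lower. Green, the 5841 with a 95% interval within 2-fold. *Kit* and *Mcm6* lie near the line, while *Pou5f1*, *Tdh* and *Cbx7* fall far below it and *Runx1*, *Itga2b* and *Alas2* far above.

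Large losses outnumbered large gains. Over 256-fold changes were called in 384 genes that fell and 182 that rose, and changes of 16 to 256-fold in 1482 and 716. Genes that were on at one end and off at the other were few at 9 CPM or more. There were 52 genes at or under 3 counts in both ES libraries and at 9 CPM or more in HP, and 63 genes of the opposite kind. Most genes expressed at one end were expressed at the other, with 9087 genes at 9 CPM or more in both, out of 10471 in ES and 10209 in HP.

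The 10 protein-coding genes with the largest gains were all at or near 0 counts in ES. *Ccl6*, a myeloid chemokine, had no count in either ES library and 782 and 580 counts in HP, which is at least 550.1-fold higher when ES is set at a floor of 3 counts over both libraries. *Pik3cg*, the leukocyte PI3 kinase gamma, rose at least 537.1-fold by the same rule and *Tyrobp*, the adaptor of myeloid receptors, at least 385.3-fold. *Lilr4b*, *Rgs18*, *Slc14a1* and *Clec1b*, the platelet receptor CLEC-2, also had no ES count, with lower bounds of 302.5 to 458.4-fold. *Hba-a2*, an adult alpha globin, had 0 counts in ES against 941 and 420, but its near-identical copy *Hba-a1* makes the split of reads between them uncertain. *Ctse*, cathepsin E, had 1 ES count in all against 1747 and 929 in HP, a ratio of 3242 with a counting interval of 581.9 to 128100. *Evi2* closes the 10, and 57.6% of its exon length lies within other genes on the same strand.

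Among the 10 protein-coding genes with the largest losses *Nphs1*, which encodes nephrin of the kidney filter, was the most abundant at 135.0 and 136.9 CPM in ES, and 3 reads were left over both HP libraries. *Ncan*, a brain proteoglycan core protein, had 1313 and 898 counts in ES and none in HP, at least 608.3-fold lower. *Pla2g1b*, *Myh13*, *Gtsf1l*, *Rpl39l*, *Clca3b*, *Vwa3b*, *Chrna9* and *Tmem92* likewise had no HP count, with lower bounds from 235.0 to 474.0-fold. All of these stood between 9 and 26 CPM in ES in both libraries.

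Of 35 naive pluripotency and core ES factors, 34 fell and 0 rose, with a median log2 fold change of -7.84 against -0.01 over all genes. *Lefty2*, a Nodal inhibitor, fell by 10.37 ± 0.48 on the log2 scale (edgeR, adjusted p = 1.69e-07). *Nr0b1*, which encodes DAX1, kept 1 read in each HP library against 4014 and 2293 in ES, so that its ES level was 2603 times that of HP with a counting interval of 720.5 to 21490. *Nanog* read 225.8 and 221.8 CPM in ES and 0.730 and 0.159 CPM in HP, and *Sox2* 348.3 and 340.9 against 0.616 and 0.127. In both genes HP replicate 1 was the higher, as it was for *Pou5f1*. The exception in the list was *Lin28b*, which blocks the maturation of let-7 microRNAs, at 70.8 and 72.9 CPM in ES and 132.1 and 142.2 CPM in HP, a change of 0.93 ± 0.26 that stayed below 2-fold. Its paralogue *Lin28a* fell by 1.46 ± 0.17 (edgeR, adjusted p = 5.43e-05).

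The genes of a rare state of ES cultures that resembles the 2-cell embryo fell in 14 of 14 cases, among them the *Zscan4* copies, whose shared sequence leaves their single levels uncertain. With the 7 genes that had no HP count set at their bound, the median was -6.37. Germline genes that are silenced in the soma fell in 20 of 22 cases. *Dnmt3l*, the cofactor of de novo DNA methylation, went from 168.3 and 155.8 CPM to 0.410 and 0, and *Mov10l1*, a helicase of the piRNA pathway, went from 15.5 and 18.0 CPM to 0.0912 and 0. The list's one gain was *Tdrkh*, at 4.27 CPM in ES and 25.0 CPM in HP.

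Of 33 hematopoietic transcription factors, 26 rose and 1 fell, with a median of 5.42. *Mef2c*, *Fli1* and *Nfe2* rose most, by 9.56, 9.22 and 8.63 on the log2 scale. *Tal1* reached 421.9 and 351.2 CPM in HP from 4.98 and 4.70 CPM, and *Gata1*, of the erythroid and megakaryocyte lineages, 75.8 and 65.7 CPM from 0.727 and 0.487. *Spi1*, which encodes the myeloid factor PU.1, reached 82.2 and 56.6 CPM from 0.957 and 0.516. *Ldb1*, the adaptor that joins TAL1 and GATA1 on DNA, ended at the ES level, with a log2 fold change of -0.20 ± 0.20. The 1 factor that fell, a call lost without either ES or either HP library, was *Ikzf3*, a lymphoid regulator at a mean of 0.445 CPM in ES and 0.0843 CPM in HP.

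Surface and signalling genes of blood rose in 26 of 33 cases. *Itgb3*, which encodes the beta subunit that pairs with CD41, climbed from 13.3 and 13.4 CPM to 1572 and 1138 CPM, and *Cd34*, a progenitor antigen, from 5.23 and 5.76 to 414.6 and 310.7. *Mpo*, the myeloperoxidase of granulocyte precursors, read 0.0709 and 0.115 CPM in ES and 246.4 and 111.2 CPM in HP. The exception was *Spn* (CD43), which was lower in HP at 7.74 CPM than in ES at 40.8 CPM.

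Genes of all 3 early lineages were read in HP. Of the members tested, erythroid genes rose in 16 of 19 cases, megakaryocyte genes in 16 of 19 and myeloid genes in 11 of 13. The myeloid list held 20 genes, and the others, such as *Elane* with 5 and 3 HP counts, were too low to test. A blood gene silent in ES was tested only where a later stage read it. These shares, like those of the blood lists above, therefore do not measure how much of a lineage's program was on. The embryonic globins led, with *Hbb-bh1* at 2620 and 1553 CPM in HP against 0.993 and 0.918 in ES, and *Hbb-y* at 426.1 and 118.6 against 0.124 and 0.143. The HP libraries differed by a factor above 3 for *Hbb-y*, far less than the distance to ES. *Plek*, the platelet protein pleckstrin, rose to 698.8 and 549.1 CPM. Against the trend, *Tfrc*, the transferrin receptor, fell from 853.3 and 879.0 CPM to 384.0 and 335.8 CPM, by 1.27 ± 0.17 (edgeR, adjusted p = 0.000137).

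Markers of other cell types moved in both directions. Of 28 endothelial genes, 16 rose and 2 fell, *Kdr* (FLK1) from 2.43 and 2.70 CPM to 334.2 and 343.6 CPM and *Cdh5* from 0.816 and 0.516 to 117.8 and 179.4. All 16 had passed the midpoint between their ES and HP levels at HB. *Notch1* and *Notch4* fell (1 call without HP replicate 1, 4 in the list without HP replicate 2), the former from 319.8 and 334.8 CPM to 56.2 and 100.7 CPM. Of 24 mesoderm, cardiac and stromal genes, 14 rose (58.3%, against 16.7% of all genes) and 5 fell (20.8%, near the 21.9% of all genes). The gains included *Acta2* (smooth muscle actin), to 528.7 and 248.9 CPM, and *Postn*, to a mean of 37.4 CPM. The summed level of the list was 179.0 and 196.1 CPM in ES and 1615 and 876.4 CPM in HP, with HP replicate 1 the higher. The losses included *T* (Brachyury) and *Eomes*, early mesoderm factors, by 2.94 and 1.52 on the log2 scale, and numbered 2 without HP replicate 2 and 3 without ES replicate 2. Of 13 primitive endoderm and trophoblast genes, 5 rose (38.5%, against 16.7% of all genes) and 4 fell (30.8%, against 21.9%). Fewer of these losses were called without HP replicate 1. The summed level of that list was 882.7 and 922.0 CPM in ES and 776.0 and 622.6 CPM in HP. The part that cells of these types had in the HP libraries was not tested.

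**Figure D2:**
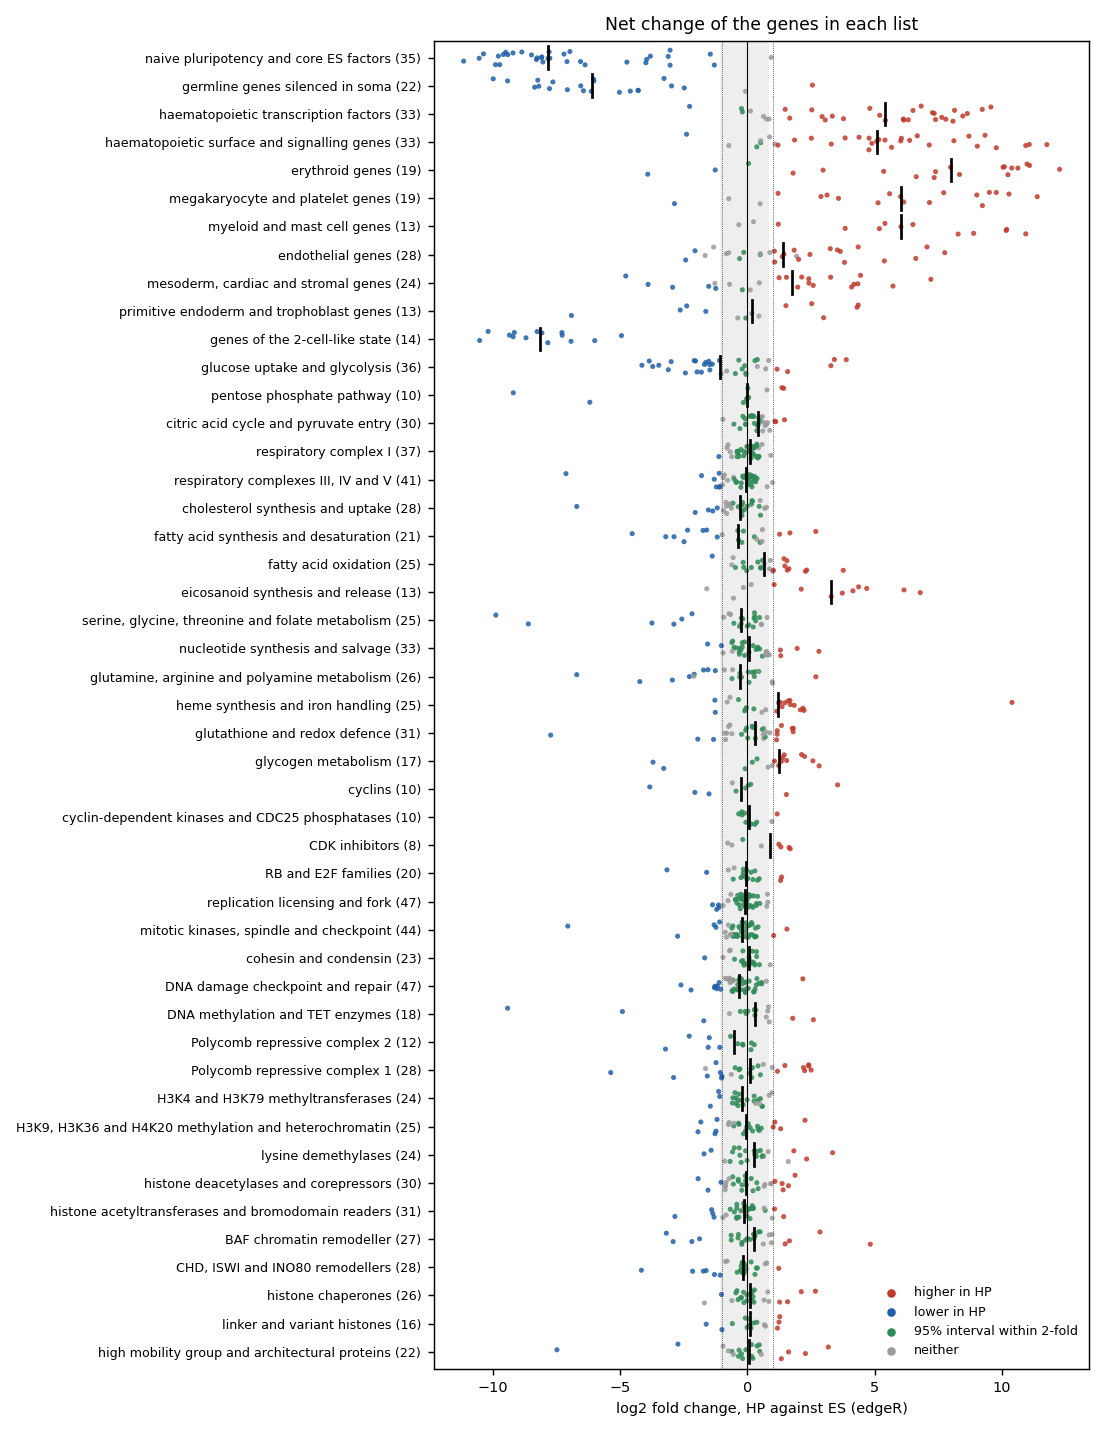
Log2 fold change, HP against ES (horizontal, edgeR), of the tested genes of 47 lists, with the number tested in brackets. Red, higher in HP. Blue, lower. Green, 95% interval within 2-fold. Grey, none of these. Black bars, list medians. Grey band, the middle of all tested genes (between the quartiles). The pluripotency and hematopoietic transcription factor lists lie far to either side, with medians of -7.84 and 5.42, the endothelial, mesoderm and primitive endoderm lists straddle 0, and the cell cycle and chromatin lists crowd around 0.

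Metabolic genes were changed about as often as genes at large, but not in every pathway. Of 397 tested, 66 (16.6%) rose, 65 (16.4%) fell and 175 (44.1%) ended at the ES level, near the shares of the well-detected protein-coding genes. The balance rested on single libraries, with 57 higher and 76 lower without HP replicate 1 and 74 higher and 55 lower without HP replicate 2. The glycolysis list stood apart by its losses, with 18 of 36 genes lower, 5 higher and a median of -1.07. The lists of eicosanoid, glycogen and heme metabolism stood apart by their gains, with 9 of 13, 10 of 17 and 13 of 25 genes higher and medians of 3.29, 1.22 and 1.21.

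In glycolysis the fall began with glucose entry and ended with lactate export. *Slc2a3*, the high-affinity glucose transporter GLUT3, read 1978 and 2057 CPM in ES and a mean of 252.6 CPM in HP, a fall of 3.00 ± 0.18 on the log2 scale (edgeR, adjusted p = 7.48e-07). *Hk2*, the hexokinase of fast-growing cells, fell from 340.4 and 330.8 CPM to 107.2 and 107.5 CPM, and *Eno1*, an enolase, from 995.5 and 983.7 to 310.3 and 303.6. *Pkm*, pyruvate kinase, fell by 1.10 ± 0.18 (edgeR, adjusted p = 0.000553). *Slc16a3*, the lactate exporter MCT4, fell from 263.6 and 273.8 CPM to 19.2 and 21.5 CPM. In each of these genes the replicates lay close together and the stages far apart. The summed level of the list was 10890 CPM in both ES libraries and 5037 and 4391 CPM in HP, but rose to a mean of 15270 CPM at HB before it fell to 4150 CPM at HE1.

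The lactate dehydrogenase pair lost a member and kept the other. *Ldhb*, the heart form of the enzyme, fell from 134.4 and 131.7 CPM to 10.2 and 8.07 CPM. *Ldha*, the muscle form, ended at the ES level with 597.2 and 487.3 CPM in HP against 634.8 and 619.6 in ES. Per kilobase of exon, *Ldhb* made up 30.9% of the pair in ES and 3.43% in HP. *Aldoa* and *Tpi1* also ended at the ES level. The gains in the list were regulators and minor forms, *Pfkfb4*, which sets the level of an activator of phosphofructokinase, from 3.42 and 3.30 CPM to 47.2 and 51.8 CPM, and *Pfkfb2* by 1.16 on the log2 scale.

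Most nuclear genes of the respiratory chain ended at the ES level. In complex I, 29 of 37 genes ended at the ES level, 1 fell and 0 rose, and in complexes III, IV and V 27 of 41 ended there and 7 fell (17.1%, near the 17.2% of well-detected protein-coding genes). Without HP replicate 1 the losses in complex I numbered 4, and without HP replicate 2 those in complexes III, IV and V numbered 2. The citric acid cycle list had 18 of 30 genes at the ES level, 3 higher (10%, under the 17.1% of well-detected protein-coding genes) and 0 lower. Without HP replicate 1 fewer gains were called and a loss appeared. *Ogdh*, 2-oxoglutarate dehydrogenase, and *Mdh1* rose by 1.11 and 1.08 on the log2 scale, and *Cox4i1* and *Ndufa7* fell by 1.23 and 1.12. The calls on *Ogdh* and *Mdh1* were lost without HP replicate 1 and those on *Cox4i1* and *Ndufa7* without HP replicate 2. Genes encoded in the mitochondrion itself, 37 in the annotation, had 0 counts in all 10 libraries and were not measured here.

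Losses of single amino acid genes were large. *Tdh*, threonine dehydrogenase, through which mouse ES cells feed glycine and 1-carbon units, read 337.0 and 332.9 CPM in ES and 0.524 and 0.127 CPM in HP. *Gldc*, the glycine decarboxylase that follows it, fell from 472.7 and 472.2 CPM to 33.0 and 37.0 CPM (log2 -3.75 ± 0.16, edgeR, adjusted p = 1.35e-07). The list of serine, glycine, threonine and folate genes had 6 of 25 lower (24%, near the 21.9% of all genes), 0 higher and 13 at the ES level. *Shmt2*, the mitochondrial serine enzyme, was among the latter with 148.3 and 120.7 CPM in HP against 126.8 and 132.7 in ES. Of the glutamine, arginine and polyamine genes, 8 of 26 fell (30.8%, against 21.9% of all genes), among them the glutaminase *Gls2* and the creatine kinase *Ckb* by 4.23 and 2.95 on the log2 scale, and *Arg2*, an arginase, from 94 and 63 counts to 1 and 0. The 1 gene of that list that rose, or 1 of 3 without ES replicate 1, without HP replicate 2 or with total counts, was *Oat*, ornithine aminotransferase, from 19.2 CPM in both ES libraries to 133.1 and 113.7 CPM.

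In fatty acid synthesis and desaturation 8 of 21 fell (38%, against 21.9% of all genes) and 3 rose (14.3%, against 16.7%). *Scd1*, the stearoyl-CoA desaturase, fell from 194.0 and 190.4 CPM to 24.1 and 17.3 CPM, while *Fasn*, fatty acid synthase, ended at the ES level. In fatty acid oxidation 9 of 25 rose (36%) and 1 fell, a fall that was lost without HP replicate 1. *Acadvl*, the very long chain acyl-CoA dehydrogenase of the mitochondrion, rose from 16.9 CPM in both ES libraries to 100.0 and 63.3 CPM. Of 28 cholesterol genes 0 rose and 5 fell (17.9%, near the 17.2% of well-detected protein-coding genes), among them the cholesterol exporters *Abca1* and *Abcg1*, by 2.05 and 1.54 on the log2 scale.

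Eicosanoid genes, whose products signal in platelets, mast cells and neutrophils, gave the largest median gain of the metabolic lists. *Ptgs1* (COX1) rose from 2.48 and 2.67 CPM to 59.7 and 46.4 CPM. *Alox5ap*, the partner of 5-lipoxygenase, rose from 2.00 and 2.29 to 68.3 and 41.8 and *Alox5* from 1.95 and 2.44 to 30.1 and 47.1. No gene of the list fell.

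Heme synthesis genes rose along most of the chain. *Alas2*, the erythroid form of the first enzyme, had 1 and 2 counts in the ES libraries and read 61.8 and 36.6 CPM in HP, and the gain continued through *Alad*, *Uros*, *Urod*, *Cpox* and *Fech*, the last at 29.96 and 28.13 CPM in ES and 129.5 and 134.0 CPM in HP. *Alas1*, the form used by other tissues, ended at the ES level. Iron storage moved unevenly: *Fth1*, the heavy chain of ferritin, rose from 336.6 and 330.4 CPM to 1256 and 887.5 CPM, while *Ftl1*, the light chain, ended at the ES level after a dip at HB. *Hmox1*, which breaks heme down, fell by 1.28 ± 0.33 (edgeR, adjusted p = 0.00772), a call lost without HP replicate 1. Near the start of *Alas2* the sequence holds the letters AGATAA, read by GATA factors, on the reverse strand. The 120 bases that end 42 bases before its RefSeq start (GRCm38.p6, chrX:150547255-150547374, plus strand) are printed 5′ to 3′ with the match in capitals because the gene leads the list.
Alas2: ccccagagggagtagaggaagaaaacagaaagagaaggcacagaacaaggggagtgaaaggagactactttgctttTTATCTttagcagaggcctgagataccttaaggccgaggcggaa
These letters were found on either strand in the 250 bases before the start in 2 of 19 heme and iron promoters with a RefSeq sequence (10.5%, *Alas2* and *Steap3*) and in 6.36% of the promoters of all 13027 tested genes with one. For the octamer TTTGCAT, read by OCT factors, the counts were 3 of 21 pluripotency promoters (14.3%) against 3.20%. *Nanog* is one of them, and the 120 bases before its start (GRCm38.p6, chr6:122707369-122707488, plus strand) are shown with the octamer in capitals.
Nanog: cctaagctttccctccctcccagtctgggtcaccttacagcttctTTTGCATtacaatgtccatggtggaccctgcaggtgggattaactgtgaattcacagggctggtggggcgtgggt
A match is a description of letters and was not tested as a site.

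Glycogen genes rose on both sides of the pathway. *Gyg*, glycogenin, which primes the polymer, went from 10.5 and 10.6 CPM to 83.8 and 64.6 CPM, *Gbe1*, the branching enzyme, rose by 2.24 on the log2 scale, and *Pygl*, a phosphorylase that breaks glycogen down, rose from 2.198 and 2.007 CPM to 13.8 and 11.3 CPM. *Gys1*, the synthase, ended at the ES level. In redox defence 7 of 31 rose (22.6%, against 16.7% of all genes) and 3 fell, the latter becoming 7 without HP replicate 1. *Gclm*, the modifier of glutathione synthesis, went from 83.2 CPM in both to 271.7 and 291.6 CPM and *Cat*, catalase, from 33.2 and 34.9 to 128.6 and 108.5. Among the nucleotide genes 19 of 33 ended at the ES level (57.6%, against 47.2% of well-detected protein-coding genes). Another 4 rose (12.1%, against 17.1%) and 2 fell (6.06%, against 17.2%). *Hprt*, of purine salvage, was low in all 4 libraries, at 0.213 and 0.258 CPM in ES and 0.752 and 1.08 CPM in HP, in HM-1, a line known to lack HPRT.

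The cell cycle genes were the class that moved least. Of 209 tested, 144 (68.9%) ended at the ES level, 12 (5.74%) rose and 23 (11%) fell, with a median log2 fold change of -0.15. The same share over well-detected protein-coding genes was 47.2%. Replication genes held 37 of 47 at the ES level, mitotic genes 32 of 44, cohesin and condensin 18 of 23 and the RB and E2F families 14 of 20. *Mcm6*, a subunit of the replicative helicase, read 340.1 and 336.7 CPM in ES and 382.3 and 334.3 CPM in HP. *Ccnb2*, cyclin B2, read 88.5 and 86.0 against 96.2 and 70.2. *Cdk1*, the mitotic kinase, read 117.4 and 115.5 against 153.4 and 146.1, a change of 0.36 ± 0.13.

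End points within 2-fold of each other did not mean a flat course. At HE1 17 of the 47 replication genes and 15 of the 44 mitotic genes were called lower than in ES, with list medians of -0.85 and -0.81, while 20.4% of all genes were called lower there. The summed level of the replication list was 7324 and 7228 CPM in ES, a mean of 3810 CPM at HE1, and 6752 and 5928 CPM in HP. Of the 144 cell cycle genes at the ES level, 26 were called changed at HE1 alone and 114 at neither HB nor HE1. The HB, HE1 and HP comparisons share the ES libraries and are not independent.

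**Figure D3:**
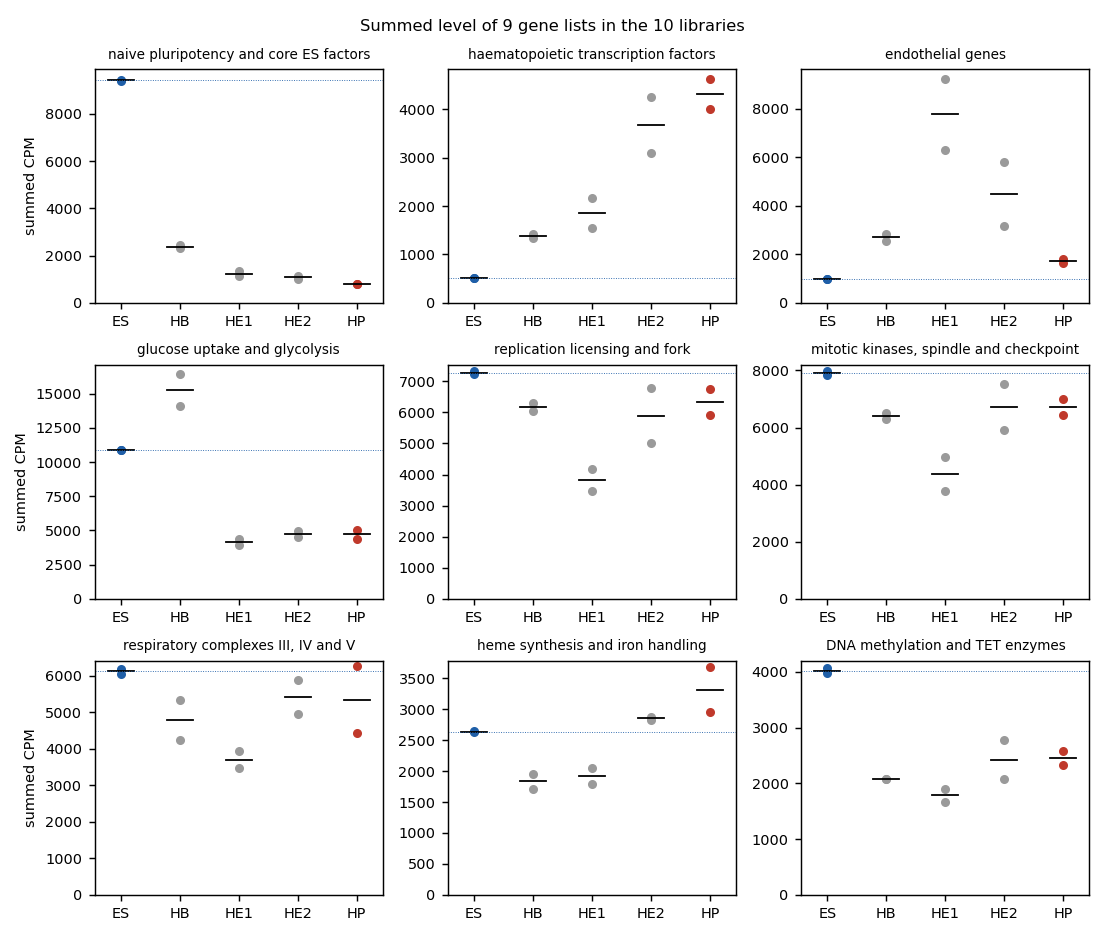
Summed CPM of the genes of 9 lists in each of the 10 libraries (points), by stage, with stage means (bars) and the ES mean (dotted line). Every axis starts at 0. The replication list dips at HE1, to a mean of 3810 CPM, and ends at 6752 and 5928 CPM near its ES level. Glycolysis peaks at HB (15270 CPM) and ends at less than its ES level.

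Letters read by cell cycle factors were counted in the promoters of this class, without a test. The E2F letters TTCCCGC or TTGGCGC, counted on both strands, were in 40 of 165 cell cycle promoters (24.2%) and in 9.58% of all 13027. CCAAT was in 92 of 165 (55.8%) against 36%, and TTTGAA, the cell cycle homology region (CHR), in 29 of 165 (17.6%) against 11%. Shown are 3 promoters of genes that ended at the ES level, 120 bases each with the matches in capitals: E2F letters in *Mcm6* (GRCm38.p6, chr1:128359706-128359825, minus strand, matches starting 109 and 46 bases before the RefSeq start), CCAAT in *Ccnb2* (chr9:70421555-70421674, minus strand, 87, 54 and 21 bases before) and the CHR letters in *Cdk1* (chr10:69352939-69353058, minus strand, 71 bases before, the stretch ending 26 bases short of the RefSeq start).
Mcm6: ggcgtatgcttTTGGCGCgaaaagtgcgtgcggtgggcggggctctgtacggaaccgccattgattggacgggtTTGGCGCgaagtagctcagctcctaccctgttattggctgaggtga
Ccnb2: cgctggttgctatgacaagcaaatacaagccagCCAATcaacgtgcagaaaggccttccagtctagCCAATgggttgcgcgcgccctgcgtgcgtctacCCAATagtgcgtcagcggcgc
Cdk1: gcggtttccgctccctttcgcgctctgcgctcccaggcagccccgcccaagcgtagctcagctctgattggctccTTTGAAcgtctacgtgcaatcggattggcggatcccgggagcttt
*Mcm6* thus carries 2 E2F matches and *Ccnb2* 3 CCAAT matches within the stretch shown.

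The changes within the class included regulators of entry into the cycle. *Ccne1*, cyclin E1, fell from 175.3 and 166.1 CPM to 43.43 and 38.09 CPM, by 2.07 ± 0.19 (edgeR, adjusted p = 1.01e-05), while *Ccne2* ended at the ES level. *Mybl2*, the B-MYB of rapidly cycling cells, fell from 678.5 and 668.5 CPM to 74.3 and 76.0 CPM and was already at 94.6 CPM at HB. *Cdkn1a*, which encodes the CDK inhibitor p21, rose from 37.8 and 36.8 to 130.9 and 107.7 CPM, and *Cdkn2d* (p19) rose as well. Of 23 cell cycle genes that fell, 20 (87.0%) had passed the midpoint between their end levels by HB, against 64.1% of all genes that fell.

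Of 47 DNA repair genes 8 fell (17%, near the 17.2% of well-detected protein-coding genes), 1 rose and 30 ended at the ES level. *Xrcc5*, which encodes Ku80 of DNA end joining, fell from 129.3 and 129.9 CPM to 31.9 and 23.7 CPM, whereas *Xrcc6*, for its partner Ku70, ended at the ES level with 71.4 and 59.0 CPM against 68.7 and 69.4. *Brca2* fell by 1.30 ± 0.18 and the cohesin acetyltransferase *Esco2* by 1.68 ± 0.15 on the log2 scale.

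Chromatin genes lay between the metabolic and the cell cycle class. Of 309 tested, 39 (12.6%) rose, 47 (15.2%) fell and 170 (55.0%) ended at the ES level, with a median of -0.05. With total counts in place of TMM factors the balance turned, with 47 genes higher and 39 lower, so neither direction is read as prevailing. Of the 39 gains 66.7% had passed the midpoint between their end levels by HB, against 48.5% of all genes that rose, and of the 47 losses 66.0%, against 64.1% of all genes that fell.

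Losses in Polycomb repressive complex 2 (PRC2), which methylates H3K27, took in accessory and core subunits. There 5 of 12 genes fell (41.7%, against 21.9% of all genes) and 7 ended at the ES level. *Jarid2* fell from 647.1 and 650.2 CPM to 139.2 and 126.5 CPM, *Epop* from 287.2 and 281.3 to 34.8 and 26.2, and *Mtf2* by 1.54 ± 0.14 on the log2 scale. *Eed*, a core subunit, fell as well, from a mean of 164.7 to 58.2 CPM. *Ezh2*, the enzyme, did not: it read 149.6 and 148.1 CPM in ES and 137.9 and 125.0 CPM in HP. In Polycomb repressive complex 1 (PRC1) 7 of 28 genes rose and 7 fell, 25% each, against 16.7% and 21.9% of all genes. The PRC1 losses were fewer with total counts in place of TMM factors. In the list of H3K4 and H3K79 methyltransferases 3 of 24 genes fell (12.5%, under the 17.2% of well-detected protein-coding genes). None rose and 17 ended at the ES level. Of the 3 that fell, *Dpy30* and *Ash2l* serve the H3K4 methyltransferases and *Kmt2b* is one of them. The call on *Ash2l* was lost without HP replicate 2.

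In the list of H3K9, H3K36 and H4K20 methylation and heterochromatin 4 of 25 genes rose and 5 fell, shares near those of all genes, and 13 ended at the ES level. *Atrx*, a remodeller of repeats, fell from 1014 and 1047 CPM to 239.6 and 296.0 CPM, and *Fam208a* and *Mphosph8* of the HUSH silencing complex fell by 1.83 and 1.28 on the log2 scale. *Suv39h1*, an H3K9 methyltransferase, rose from 32.8 and 31.8 CPM to 159.7 and 149.3 CPM. From other lists, *Kat6b*, an acetyltransferase, fell from 348.9 and 358.8 to 46.1 and 52.0. Among architectural proteins *Hmga2* rose from 60.0 and 60.5 CPM to 638.2 and 450.3 CPM, while *Lmnb1*, lamin B1, ended at the ES level.

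In the BAF remodeller 4 of 27 genes rose, 4 fell (14.8% each, near the 17.1% and 17.2% of well-detected protein-coding genes) and 15 ended at the ES level. *Smarca2*, which encodes the ATPase BRM, rose from 2.52 and 2.47 CPM to 73.6 and 67.8 CPM, a change of 4.82 ± 0.20 (edgeR, adjusted p = 1.35e-07). Its alternative *Smarca4* (BRG1) ended at the ES level and, per kilobase of exon, still made up 92.8% of the pair in HP against 99.7% in ES.

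Members called in opposite directions were found in 7 of 30 families of related genes. The values here are RPKM, CPM per kilobase of exon, so that members can be compared with each other. In the TET dioxygenases, which oxidise methylated cytosine, *Tet1* fell from a mean of 111.2 to 3.69 RPKM and *Tet2* from 15.9 to 4.82, while *Tet3* rose from 2.28 to 13.7. *Tet1* made up 86.0% of the family in ES and *Tet3* 61.6% in HP, and the summed level of the family fell to 0.171 of its ES value. The CPM behind the exchange were 1673 and 1766 in ES against 58.6 and 55.4 in HP for *Tet1*. For *Tet3* they were 37.2 and 38.8 against 224.4 and 232.3.

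The D cyclins, which start the cycle from G1, changed order. *Ccnd1* went from 26.4 to 9.26 RPKM, *Ccnd2* from 1.07 to 12.4 and *Ccnd3* from 16.1 to 46.3. *Ccnd1* was the largest in ES at 60.6% of the family and *Ccnd3* in HP at 68.1%. The fall of *Ccnd1* (log2 -1.51 ± 0.50, edgeR, adjusted p = 0.0277) was lost without ES replicate 1, without either HP library and with total counts in place of TMM factors. Those of the other members held under each of these settings.

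The CBX proteins, which bring PRC1 to methylated H3K27, lost their main member. *Cbx7* fell from 44.3 to 1.07 RPKM and *Cbx6* from 12.8 to 5.42, *Cbx8* rose to 1.43 RPKM, and *Cbx2* ended at the ES level with 6.82 RPKM. The PCGF subunits of the same complex exchanged members as well. *Pcgf2* and *Pcgf6* fell to 9.11 and 4.70 RPKM and *Bmi1* and *Pcgf5* rose to 10.4 and 9.04 RPKM, *Pcgf3* ended at the ES level, *Pcgf1* met no rule, and the sum read 54.6 RPKM in ES and 47.3 RPKM in HP.

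Among the CoREST corepressors *Rcor2* fell from 38.9 to 10.1 RPKM, *Rcor1* rose from 9.41 to 24.8 and *Rcor3* stayed low in spite of its gain, at 1.28 RPKM in HP. In the class IIa deacetylases *Hdac7* rose from 2.60 to 9.49 RPKM, *Hdac9* fell from 0.199 to 0.0682, *Hdac4* ended at the ES level and *Hdac5* changed by less than 2-fold. The fall of *Hdac9* was lost with total counts and without any of the ES or HP libraries, the gain of *Rcor3* without HP replicate 2 and the fall of *Pcgf2* with total counts. Of the hexokinases *Hk2* fell from 56.2 to 18.0 RPKM, *Hk3* rose to no more than 0.393 RPKM, and *Hk1* changed by 0.83 ± 0.15 on the log2 scale, under the threshold, and made up 44.4% of the family in HP against 12.8% in ES.

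**Figure D4:**
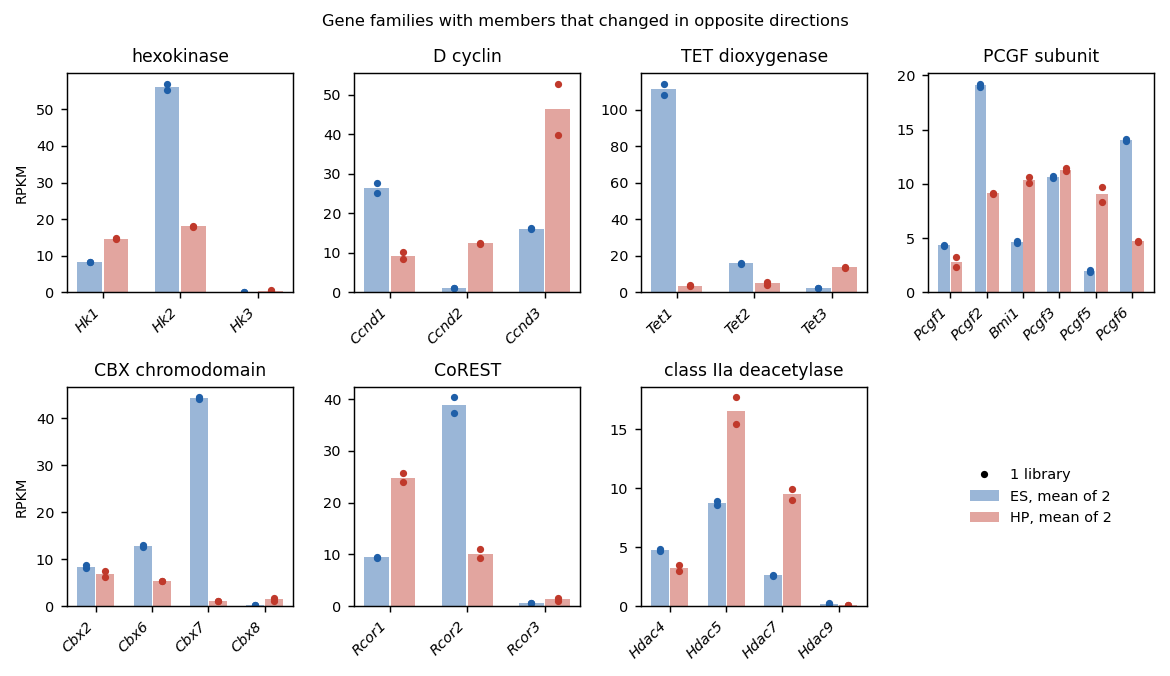
RPKM (CPM per kilobase of exon, linear axes from 0) of members of the 7 families with called members in both directions. Bars, means of 2 libraries. Points, single libraries. Blue, ES. Red, HP. *Tet1* falls from 111.2 to 3.69 RPKM as *Tet3* rises to 13.7, and *Ccnd3* replaces *Ccnd1* as the largest D cyclin.

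Of the 5841 genes that ended at the ES level, 5098 (87.3%) were not called 2-fold different from ES at HB or HE1, which does not show that they stayed there. *Mcm6*, for example, was lower than ES at HE1 by 0.87 on the log2 scale (edgeR, adjusted p = 0.00825). There were 181 genes (0.801% of those tested) that dipped, meaning that they were called lower than ES at HB or HE1, were called higher in HP than at that stage, and ended at the ES level. The opposite path, a peak, was taken by 260 genes (1.15%). Over all genes, 17.3% were called lower and 11.5% higher than ES at HB, 20.4% lower and 20.3% higher at HE1, and 5.35% higher in HP than at HE1. Dips were found at HB in 120 genes and at HE1 in 79, and peaks at HB in 120 and at HE1 in 175. These counts rest on single libraries more than the others do: dips numbered 354 without HE1 replicate 1, 98 without HP replicate 1 and 119 without ES replicate 2, and peaks 145, 144 and 142 without ES replicate 1, ES replicate 2 and HP replicate 1.

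*Slco4a1*, an organic anion transporter, had the deepest dip and read 27.1 and 24.6 CPM in ES, 0.463 and 0.253 CPM at HB and 21.7 and 22.1 CPM in HP. *Sema4d*, the semaphorin CD100 of lymphocytes and platelets, read 102.5 and 105.1 CPM in ES, 10.9 and 9.77 at HB, 7.74 and 8.19 at HE1, and 118.7 and 95.4 in HP. Its end points differed by 0.04 on the log2 scale with an interval of -0.34 to 0.43. *Steap3*, a ferrireductase that serves iron uptake in red cells, fell from 21.8 and 21.5 CPM to 2.41 and 2.84 at HB and stood at 26.2 and 15.8 in HP. *Prss23*, *Prune2*, *Camk1d*, *Arhgef10l* and *AI467606* complete the 8 deepest among protein-coding genes of at least 9 CPM, with departures of -2.77 to -3.79 on the log2 scale.

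Among the listed genes tested, 8 of 209 of the cell cycle, 7 of 397 of metabolism, 6 of 309 of chromatin and 2 of 249 of identity dipped. The share over all tested genes was 0.801%. The same classes, in that order, held 2, 11, 4 and 5 genes that peaked, against 1.15% of all. *Dnmt3b*, a de novo DNA methyltransferase, stood at 271.7 and 267.6 CPM in ES, 63.2 and 74.2 at HE1 and 285.7 and 218.8 in HP. Its place at the ES level was lost without ES replicate 2 or either HP library. *Cdk6*, a kinase partner of the D cyclins, stood at 71.8 and 73.5 CPM in ES, a mean of 33.4 at HE1 and 64.6 and 74.4 in HP. The histone variant *H2afx*, the replication gene *Gins1*, the spindle motor *Kif11* and *Knl1* of the kinetochore dipped at HE1 as well. *Ftl1*, *Gpx1*, *Taldo1* and *H6pd*, of iron storage, peroxide removal and the pentose phosphate pathway, dipped at HB.

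*Pdgfra*, the receptor of paraxial mesoderm, had the highest of the 8 peaks shown and read 2.13 and 2.12 CPM in ES, 192.8 and 195.6 CPM at HB and 1.94 and 1.75 CPM in HP. *Vldlr*, the very low density lipoprotein receptor, read 4.40 and 4.19, then 310.2 and 351.5 at HB, and 5.40 and 4.13 in HP. *Msx1* and *Snai1*, transcription factors of mesoderm formation, peaked at HB with departures of 6.20 and 4.50 on the log2 scale. *Dpysl3* alone of the 8 highest peaked at HE1, at 539.5 and 344.1 CPM against 55.3 and 54.9 in ES and 40.6 and 71.0 in HP.

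Several glycolytic genes took the peaked path. *Ldha* read 634.8 and 619.6 CPM in ES, 1786 and 2170 CPM at HB and 597.2 and 487.3 CPM in HP, and *Aldoa*, *Tpi1* and the glycogen synthase *Gys1* also peaked at HB. The sterol genes *Hmgcs1* and *Lss* did so with them. The endothelial gene *Ephb4* and the matrix gene *Sparc* peaked at HE1, *Efnb2* at both HB and HE1, and all 3 were back at the ES level in HP. *Pecam1*, the endothelial antigen CD31, took both paths: it read 157.6 and 163.6 CPM in ES, 39.3 and 32.9 at HB, 745.0 and 491.1 at HE1 and 238.5 and 216.6 in HP. Its interval, 0.01 to 1.00, only just lay inside the margin, and its place at the ES level was lost without any of the ES, HB or HP libraries and with total counts.

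**Figure D5:**
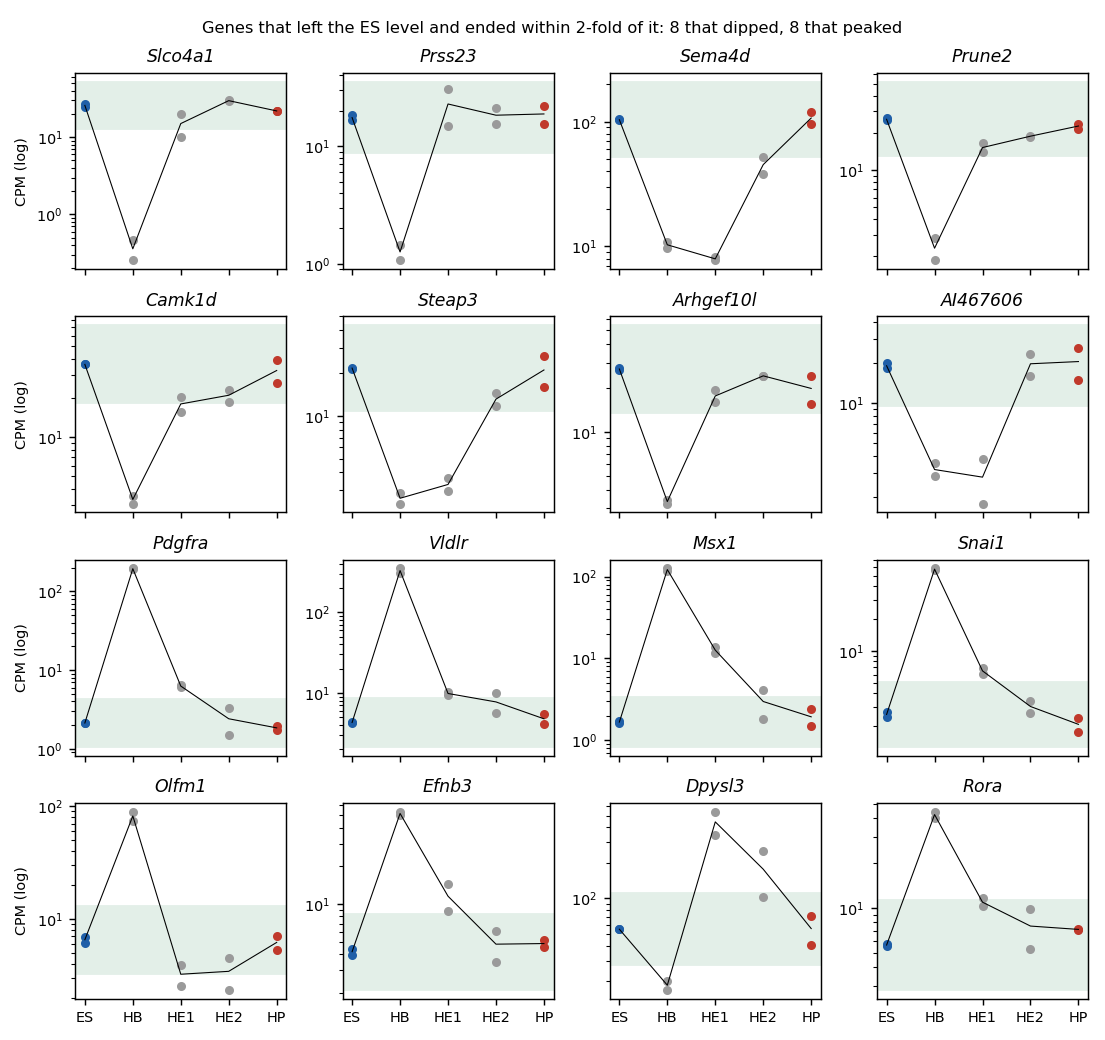
CPM in each of the 10 libraries (points, log axis) by stage for the 8 genes with the deepest dip (upper rows) and the 8 with the highest peak (lower rows) among those that ended within 2-fold of ES. Lines join stage means. The green band spans 2-fold either side of the ES mean. *Sema4d* falls to about 10 CPM at HB and returns to 118.7 and 95.4 CPM, and *Pdgfra* reaches 192.8 and 195.6 CPM at HB and returns to 1.94 and 1.75 CPM.

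Gains and losses were also unequal in time. The mean log2 CPM of genes that fell had passed the midpoint between ES and HP by HB in 64.1% of cases, and of genes that rose in 48.5%. Only 2.30% of gains and 1.59% of losses first passed it in HP itself. Of the surface and signalling genes of blood that rose 17 of 26 passed it at HE2, as did 9 of 11 myeloid genes, against 16.1% of all gains. Hematopoietic transcription factors were divided, with 14 of 26 (53.8%) passing at HB and 9 (34.6%) at HE2. Of the glycolytic losses 13 of 18 passed it at HE1, against 23.0% of all losses. Here the midpoint was read on stage means, without a test of the order.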

How the data were processed

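Nuclear RNA was sequenced from 10 libraries, 2 of each of 5 stages. The authors removed ribosomal reads, trimmed, aligned to mm10 with HISAT2 2.2.1 and deposited raw counts per gene, made with featureCounts 2.0.1 by strand on Ensembl 102, with reads in overlapping genes counted for each. From these counts the stages were fitted together in edgeR 4.0.16 (quasi-likelihood test, TMM factors, filterByExpr, no covariate), with Benjamini-Hochberg adjustment over 22596 genes. Calls needed an adjusted p under 0.05 and a 2-fold change. Floors are 3 counts per library, or over both libraries of a stage for lower bounds of folds. Intervals of fold changes come from the fit and include the spread between libraries, while floors and the intervals of count ratios cover counting error only. Promoters, the 250 bases before a start, came from RefSeq on GRCm38.p6. The members and lists were chosen with earlier results of these data known. Genes were named by a rule: the anchors, the largest changes overall and in each list, deep dips and high peaks, and families called in both directions. Others, such as *Nanog*, *Sox2*, *Lin28b*, *Tal1*, *Gata1*, *Spi1*, *Itgb3*, *Cd34*, *Slc2a3*, *Eno1*, *Pkm*, *Mcm6*, *Ccnb2*, *Cdk1*, *Ezh2*, *Eed*, *Smarca4* and members of the heme chain, were chosen after their values were seen. The fit was tested on simulated data. Alternatives were limma-voom, DESeq2, total counts, no filter, other thresholds, 4 libraries alone, a replicate block and leaving out each library. Some genes of the lists are not reported here.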

Additional observations from a re-analysis of the deposited data

How the results depend on the processing

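No called change of a named gene turned direction under the alternatives run, but the balance of a class could. Chromatin genes went from 39 higher and 47 lower to 47 and 39 with total counts, and metabolic genes from 57 and 76 without HP replicate 1 to 74 and 55 without HP replicate 2. The counts of genes higher and lower in HP stayed within 1.5 times under limma-voom, DESeq2, total counts in place of TMM factors, no filter, the 4 libraries alone and library sizes without the 20 top genes. Without the filter, 8823 genes lay within 2-fold of ES. With a 4-fold threshold, 2157 genes were higher in HP, and the higher and lower counts were 25 and 33 for metabolic genes, 2 and 7 for cell cycle genes and 15 and 14 for chromatin genes. With a margin of 1.5-fold, 1923 genes ended at the ES level, 41 dipped and 52 peaked. When each library was left out in turn, genes higher in HP numbered 2926 to 4011, genes lower 4170 to 5475 and genes within 2-fold 4309 to 6286, with dips from 98 to 354 and peaks from 142 to 330. Metabolic genes ranged from 57 to 74 higher and from 55 to 76 lower, cell cycle genes from 10 to 12 and from 21 to 23, and chromatin genes from 37 to 40 and from 42 to 49. A stage left with 1 library was assumed to vary like the others. Of 296 named genes, 41 and 37 lost their call or their place at the ES level without HP replicate 1 and 2. The same happened to 31 and 25 without ES replicate 1 and 2, and 18 changed call or place with total counts. Of 96 counts of list members higher or lower, 16 and 14 moved by over 1.5 times without HP replicate 1 and 2, 8 and 3 without ES replicate 1 and 2, and 9 with total counts, which also took PRC1 losses from 7 to 4. The cause was not tested. Same-numbered ES and HP libraries shared only a number (r = -0.0056), and with the replicate as a block 3560 genes were higher and 4762 lower. With 2 libraries a stage, a gene that met no rule is not shown to be equal.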
